A study of Mus musculus with 4 samples.

Results

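The mature neutrophils described here were 2033 cells of 51841 barcodes that passed limits on genes and mitochondrial transcripts in 4 single-cell libraries of mouse tumour leukocytes. They were chosen by their own transcripts, counted as unique molecular identifiers (UMIs, each standing for 1 captured RNA molecule). A member had 300 to 5000 detected genes, at most 6% mitochondrial UMIs and at least 2 of the neutrophil genes Csf3r, Cxcr2, G0s2 and Hdc. It had no UMI of Csf1r, C1qa, Cd3e or Cd79a, which mark macrophages, T cells and B cells, at least 1 UMI of the granule and acute-phase genes Retnlg, Mmp9 and Lrg1, and fewer than 20 UMIs of the chemokines Ccl3 and Ccl4 per 10000. The libraries held 133 members of 7776 barcodes (untreated), 1158 of 14326 (ADU-S100), 294 of 14041 (anti-LTβR) and 448 of 15698 (combination).

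KPC pancreatic carcinoma cells, a line from genetically engineered mice whose alleles include Trp53 R172H and Pdx1-Cre, were grown under the skin of male C57BL/6 mice of 8 to 10 weeks, so all 4 groups carried the same tumour line. The ADU-S100 group received that STING agonist, a cyclic dinucleotide, once into the tumour at 2 µg on day 0. The anti-LTβR group received the agonistic lymphotoxin-β receptor antibody 4H8 at 100 µg into the peritoneum every 3 to 4 days, 4 times until day 10, the combination group received both, and the untreated group neither. Live CD45+ cells were sorted on day 14, and the 10 tumours of a group were pooled into 1 library, so no group had a replicate. Every interval given is a 95% interval of counting error only, no difference was tested, and the treatment and the library cannot be told apart. Intervals of levels and of their ratios treat each UMI as an independent draw, so the spread between cells is left out of them.

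Neutrophils leave the bone marrow after making their granules in a fixed order: primary granules with myeloperoxidase and elastase, then secondary granules with lactoferrin and cathelicidin, then gelatinase granules with matrix metalloproteinase 9. The G-CSF receptor (Csf3r) supports their production and survival, and CXCR2, the receptor for Cxcl1, Cxcl2 and related chemokines, draws them from the marrow into tissue. S100a8 and S100a9 form calprotectin, the most abundant cytosolic protein of the cell. In tumours, neutrophils also make Il1b and chemokines, and some take up suppressive genes such as Cd274 (PD-L1).

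The label was checked against genes that the rule did not require. S100a8 stood at 198 UMIs per 10000 in untreated members, 243 in ADU-S100, 358 in anti-LTβR and 199 in the combination, and S100a9 at 267, 385, 484 and 306. After thinning each cell to 500 UMIs, S100a8 was detected in 82.7%, 91.6%, 90.8% and 92.2% of members (88.7%, 96.0%, 96.9% and 96.4% before thinning). The same share in T cells, which lack the gene, was 0.219%, 1.47%, 0.452% and 0.929%, so the signal in members lay far above the level of free RNA. No cell fell under 500 UMIs. Primary granule genes were near 0, with a summed level over 8 genes of 0.208, 0.472, 1.37 and 2.39 UMIs per 10000, and Mpo had no UMI in untreated, ADU-S100 or anti-LTβR members. The members thus carried neutrophil genes, with a small subset rich in secondary granule genes that is described further on.

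Markers of other cells were sparse, with 1 exception. No red cell gene was detected, the 8 mast cell and basophil markers summed to 0, 0.0352, 0 and 0 UMIs per 10000, and the 9 T cell markers to 1.04, 0.271, 0.510 and 0.744. The 10 macrophage and monocyte markers, all of them detected in every library, summed to 6.11, 6.00, 7.09 and 9.97. The 8 B and plasma cell markers summed to 1.49, 0.916, 4.74 and 44.2. Of these, Igkc alone gave 0.798, 0.381, 2.16 and 19.6 UMIs per 10000 in members. At 500 UMIs, Igkc was detected in 25.9% of combination members and in 17.5% of combination T cells, against 5.26% and 2.19% in the untreated library. The combination library thus held immunoglobulin RNA in cells of both kinds, and its part in other results was not tested.

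Depth differed between the libraries. Members had a median of 2039 UMIs in the untreated library, 2230 in ADU-S100, 1802 in anti-LTβR and 1069 in the combination, and a median of 885, 862, 774 and 567 genes. The member UMIs summed to 288206, 2837657, 647345 and 564882, so levels in the ADU-S100 library had the least counting error and those in the untreated library the most. Between 34 and 83 of the deposited barcodes were shared by any pair of libraries, and no member barcode was shared.

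Mature neutrophils took a larger share of the sorted leukocytes in the ADU-S100 library than in any other. They made up 1.71% (1.43 to 2.02) of the barcodes in the untreated library, 8.08% (7.64 to 8.54) in ADU-S100, 2.09% (1.86 to 2.34) in anti-LTβR and 2.85% (2.60 to 3.13) in the combination. The share in ADU-S100 was 4.73 times (3.96 to 5.64) that in the untreated library, and the intervals of these shares lay apart. The share in the combination was 0.353 times (0.317 to 0.393) that in ADU-S100. It was 1.67 times (1.38 to 2.02) the untreated one, but 1.15 times (0.925 to 1.44) with barcodes thinned to 1000 UMIs and shallower ones left out, and 1.22 times (0.994 to 1.51) with at least 500 genes per cell, both intervals holding 1. For anti-LTβR over untreated the ratio was 1.22 (0.999 to 1.50), an interval that reached equality. The combination over anti-LTβR gave 1.36 (1.18 to 1.58), but 1.67 with every barcode thinned to 500 UMIs and 1.03 with barcodes thinned to 1000 UMIs. The last setting left out 582, 1473, 1263 and 2942 shallower barcodes, so depth and the loss of cells cannot be told apart in it. A share of a sort moves also with the other cells of the sort, and fewer leukocytes of other types cannot be told apart from more neutrophils.

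**Figure D1:**
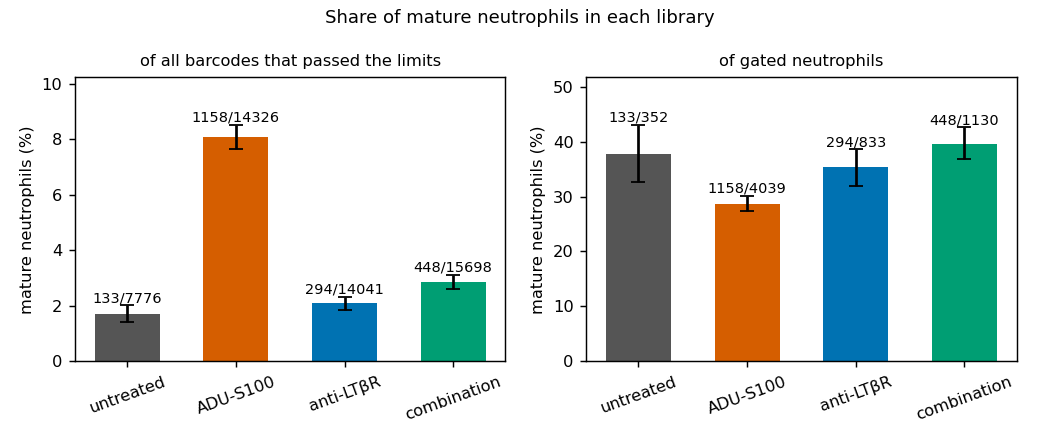
Share of mature neutrophils (percent, bars from 0) in each of the 4 libraries, of all barcodes that passed the limits (left) and of gated neutrophils (right), with exact 95% binomial intervals and the cell counts above the bars. The ADU-S100 bar is the highest on the left at 8.08% and the lowest on the right at 28.7%.

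Among neutrophils alone the order was different. The neutrophil part of the gate, without the rule on granule genes and chemokines, took 352, 4039, 833 and 1130 barcodes. Members were 37.8% of these in the untreated library, 28.7% in ADU-S100, 35.3% in anti-LTβR and 39.6% in the combination. The ratio of ADU-S100 to untreated was 0.759 (0.658 to 0.875) and that of the combination to ADU-S100 was 1.38 (1.27 to 1.51), whereas anti-LTβR over untreated (0.934, 0.794 to 1.10) and the combination over untreated (1.05, 0.901 to 1.22) had intervals that held 1. The remaining gated neutrophils were mostly Ccl3-high cells, with at least 20 Ccl3 and Ccl4 UMIs per 10000. These numbered 159, 2455, 462 and 529, and their share of all barcodes in ADU-S100 was 8.38 times (7.16 to 9.82) that in the untreated library. The larger neutrophil share of the ADU-S100 library was therefore made up more of Ccl3-high cells than of members.

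The chemokine limit cut a continuous range. With granule genes present, 11, 105, 18 and 36 members lay just inside it at 15 to 20 UMIs per 10000, and 7, 100, 18 and 21 cells just outside at 20 to 25. No Ccl3 or Ccl4 UMI at all was found in 60.9%, 50.9%, 64.6% and 74.8% of members, and the shallowest library had the highest value. Which granule gene admitted a cell also differed. Retnlg alone admitted 6 of 133 untreated members, 332 of 1158 in ADU-S100, 60 of 294 in anti-LTβR and 90 of 448 in the combination, while Mmp9 alone admitted 40, 124, 43 and 55. Members with 2 or 3 of the genes were 52.6%, 49.7%, 57.8% and 50.4%.

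Levels of the genes of the rule are a description, since the rule used them. Csf3r stood at 20.9, 18.1, 20.1 and 22.0 UMIs per 10000 (in the order untreated, ADU-S100, anti-LTβR, combination, used throughout), and Cxcr2 at 12.0, 9.51, 11.5 and 10.8. G0s2, a regulator of lipolysis, was at 53.5, 60.5, 52.3 and 58.9, and Hdc, which makes histamine, at 34.1, 30.4, 24.6 and 30.9. These 4 varied by less than 2-fold over the libraries. Retnlg, a resistin-like protein of mature marrow and blood neutrophils, varied most among the genes of the rule, at 8.36, 27.9, 51.7 and 23.3. Mmp9, the gelatinase, stood at 8.88, 4.35, 8.37 and 6.46, and Lrg1, a secreted leucine-rich glycoprotein, at 7.46, 6.65, 6.36 and 9.17. Thus the untreated library had the lowest Retnlg and the ADU-S100 library the lowest Mmp9.

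**Figure D2:**
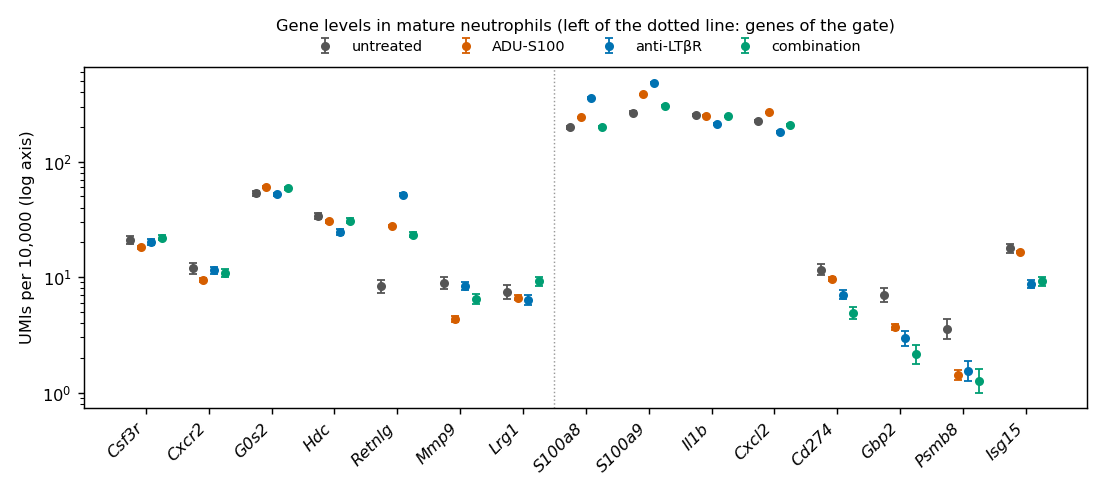
Levels of 15 genes in mature neutrophils (UMIs per 10000, log axis), 1 point per library with its 95% Poisson interval. Genes left of the dotted line were used by the gate. Retnlg is lowest in the untreated library (8.36), and Gbp2 and Psmb8 are highest there (6.97 and 3.54).

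Between the libraries, each gene with at least 100 UMIs over the pair compared was given a log2 ratio of its level, and a 2-fold ratio in either direction was counted. The first 3 comparisons share the untreated library, so their values are not independent. Of 3347 genes in ADU-S100 over untreated, 4.60% were at least 2-fold higher and 3.53% at least 2-fold lower. Of 1504 genes in anti-LTβR over untreated the values were 3.72% and 1.73%, and of 1435 in the combination over untreated 3.0% and 1.25%. In the combination over ADU-S100 they were 2.96% and 2.03% of 3547 genes, and in the combination over anti-LTβR 1.48% and 1.15% of 1829. These shares are the background against which the counts of each gene list are set. The split of higher and lower genes moved with the scaling. With a median-of-ratios factor, 199 were higher and 76 lower in ADU-S100 over untreated, where the main values were 154 and 118, and 84 higher and 91 lower in the combination over ADU-S100, where they were 105 and 72. The median log2 ratio of all genes was -0.14, -0.05, -0.01, 0.07 and 0.02 in these 5 comparisons.

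Most of the interferon-stimulated genes that had enough UMIs lay below the median of all genes in each of the 3 comparisons with untreated members, though few were 2-fold lower. These genes answer type I and type II interferons and include antiviral effectors (Isg15, Rsad2, the Ifit and Oas families), the transcription factor Irf7 and the guanylate-binding proteins, GTPases that act on intracellular pathogens. In ADU-S100 over untreated, 39 of 48 genes had enough UMIs, none was at least 2-fold higher and 4 were at least 2-fold lower, with a median log2 ratio of -0.51. In anti-LTβR over untreated, 1 of 25 was higher and 4 lower past 2-fold (median -0.52), and in the combination over untreated 0 of 24 was higher and 2 lower (median -0.59). The members past 2-fold on the lower side were 4 of 39, 4 of 25 and 2 of 24, against backgrounds of 3.53%, 1.73% and 1.25%. Below the median of all genes lay 30 of 39, 22 of 25 and 21 of 24. With members thinned to 500 UMIs the medians were -0.16, -0.29 and -0.36, over the fewer genes that then had enough UMIs. The summed level of the list was 202 UMIs per 10000 (197 to 207) in untreated members, 174 (172 to 175) in ADU-S100, 163 (160 to 167) in anti-LTβR and 148 (144 to 151) in the combination. In single cells the difference was small for ADU-S100: the median member had 157, 152, 129 and 131 interferon-stimulated UMIs per 10000, and the cells of the libraries overlapped widely, with 25% to 75% ranges of 100 to 270, 94.2 to 228, 83.3 to 197 and 86.0 to 191.

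**Figure D3:**
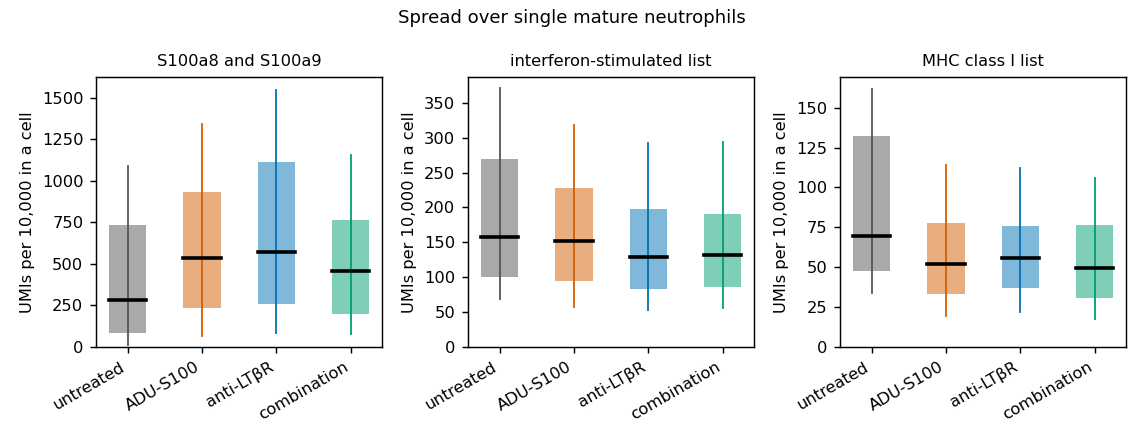
UMIs per 10000 in single mature neutrophils for S100a8 and S100a9 together, the interferon-stimulated list and the MHC class I list, by library. Black lines are medians, boxes the 25% to 75% range and thin lines the 10% to 90% range. The untreated median is the lowest for S100a8 and S100a9 (281) and the highest for the MHC class I list (69.8).

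The list members past 2-fold differed between the comparisons. In ADU-S100 over untreated the 4 lower ones were Ifi35 (-1.54), Ifit2 (-1.48), Xaf1 (-1.11) and Ifit3 (-1.06), and Ifit3 has a near-identical copy, Ifit3b, so its count is uncertain. In anti-LTβR they were Gbp5 (-1.45), Gbp7 (-1.32), Gbp2 and Isg15, and in the combination Gbp2 and Gbp7. Gbp2 stood at 6.97, 3.72, 2.95 and 2.14 UMIs per 10000, highest in untreated and lowest in combination members. Its log2 ratio to untreated was -0.91 in ADU-S100, -1.24 in anti-LTβR (-1.53 to -0.95) and -1.70 in the combination (-2.04 to -1.37). Gbp7 was at 2.39, 1.21, 0.958 and 1.01, and Gbp5 at 2.32, 1.33, 0.850 and 0.531. After thinning to 500 UMIs, Gbp2 was detected in 19.5%, 12.2%, 8.16% and 7.14% of members (40.6%, 27.2%, 22.1% and 14.7% before thinning), against 3.94%, 3.91%, 3.62% and 3.60% of T cells. The order of the members was the same in detection and in level.

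Isg15, a ubiquitin-like protein, followed another pattern. Its level was 17.8, 16.6, 8.74 and 9.19 UMIs per 10000, with both libraries that received the antibody lower. The log2 ratio to untreated was -0.10 in ADU-S100 (-0.23 to 0.03, an interval that held 0), -1.02 in anti-LTβR and -0.95 in the combination, and that of the combination to ADU-S100 was -0.85. At 500 UMIs it was detected in 39.1%, 40.2%, 24.1% and 27.2% of members, against 3.06%, 3.67%, 3.17% and 3.48% of T cells. Not all genes of the list were lower: Ifitm1, which restricts virus entry, was at 25.4, 31.4, 31.0 and 26.6. Ifitm6 was the list member at least 2-fold higher in anti-LTβR (2.98, 2.11, 9.47 and 2.76), and in that library its UMIs lay mostly in the granule-rich cells described further on.

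The promoters of 4 of these genes are shown because they carry the interferon-stimulated response element, the DNA motif bound by the interferon-activated factor ISGF3 and by interferon regulatory factors. They are RefSeq promoters of build GRCm38.p6, 250 bases before to 50 after the start site, matched by symbol and written 5′ to 3′ on the gene's strand. Capitals mark each match to the core GAAANNGAA on either strand, overlapping matches included. Isg15 (chr4:156200769-156201068, minus strand) had 3 overlapping matches, Gbp2 (chr3:142620413-142620712, plus strand), Gbp7 (chr3:142530086-142530385, plus strand) and B2m (chr2:122147437-122147736, plus strand) had 1 each.
Isg15: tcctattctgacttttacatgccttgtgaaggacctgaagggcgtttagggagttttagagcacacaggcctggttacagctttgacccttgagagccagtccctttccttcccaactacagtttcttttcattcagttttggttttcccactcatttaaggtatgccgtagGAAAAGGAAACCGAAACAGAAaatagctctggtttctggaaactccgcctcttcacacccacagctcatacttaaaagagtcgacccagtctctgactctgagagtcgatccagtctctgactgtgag
Gbp2: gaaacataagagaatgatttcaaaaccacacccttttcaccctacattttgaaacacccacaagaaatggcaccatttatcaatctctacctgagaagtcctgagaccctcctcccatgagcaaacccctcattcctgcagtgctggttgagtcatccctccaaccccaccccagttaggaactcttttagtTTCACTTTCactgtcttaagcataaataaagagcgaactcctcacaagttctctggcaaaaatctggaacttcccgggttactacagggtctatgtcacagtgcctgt
Gbp7: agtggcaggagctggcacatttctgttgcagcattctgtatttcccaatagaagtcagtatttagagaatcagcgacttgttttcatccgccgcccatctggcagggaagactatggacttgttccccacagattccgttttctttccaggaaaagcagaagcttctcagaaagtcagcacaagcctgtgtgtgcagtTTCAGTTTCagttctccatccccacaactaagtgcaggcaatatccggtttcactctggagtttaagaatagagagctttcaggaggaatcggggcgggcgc
B2m: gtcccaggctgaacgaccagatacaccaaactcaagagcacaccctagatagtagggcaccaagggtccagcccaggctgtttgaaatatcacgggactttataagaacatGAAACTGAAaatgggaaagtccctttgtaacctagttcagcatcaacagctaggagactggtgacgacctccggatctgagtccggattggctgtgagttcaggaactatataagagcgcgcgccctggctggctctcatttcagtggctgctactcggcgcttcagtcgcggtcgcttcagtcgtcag
The matches began 78, 72 and 66 bases before the start site in Isg15, 58 before in Gbp2, 52 before in Gbp7 and 139 before in B2m. Of the 48 listed interferon-stimulated genes, 38 had a promoter in the table and 22 of these (57.9%) held the core, against 3 of 13 genes of the MHC class I list (23.1%), to which B2m belongs, and 2638 of all 27025 genes (9.76%). Psmb8, of that class I list, held no match in its window, and RefSeq places its start downstream of the one in the GENCODE annotation, so a window depends on the start chosen. A match is a description of the letters.

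Genes of MHC class I presentation were lower in all 3 treated libraries as well. They encode the class I chains (H2-K1, H2-D1, H2-T23), β2-microglobulin (B2m), the peptide transporter (Tap1, Tap2), the immunoproteasome subunits (Psmb8, Psmb9, Psmb10) and its activator (Psme1, Psme2). All 15 genes of the list that passed in ADU-S100 over untreated lay below the median of all genes, with 2 at least 2-fold lower and a median log2 ratio of -0.84. In anti-LTβR over untreated 12 of 12 lay below, 1 of them past 2-fold (median -0.55), and in the combination over untreated 12 of 12, 4 of them past 2-fold (median -0.78). The summed level was 90.2 UMIs per 10000 in untreated members (86.7 to 93.7), 62.7 in ADU-S100 (61.8 to 63.6), 64.0 in anti-LTβR (62.0 to 65.9) and 57.5 in the combination (55.5 to 59.5).

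Psmb8 had the largest ratio of that list in all 3 comparisons. It stood at 3.54, 1.43, 1.54 and 1.27 UMIs per 10000, with log2 ratios to untreated of -1.31, -1.20 and -1.47, and was 1 of 6 genes of 1376 at least 2-fold lower in all 3 treated libraries. Psmb10, the second gene past 2-fold in ADU-S100, was at 0.833, 0.345, 0.417 and 0.336, and Psmb9 at 1.94, 1.08, 1.08 and 0.850. Of the class I chains, H2-T23 was at 4.09, 2.13, 2.64 and 2.04. H2-K1 (10.7, 6.98, 7.54 and 6.43), H2-D1 (21.4, 17.2, 17.4 and 15.9) and B2m (33.2, 24.7, 23.6 and 21.8) differed by less than 2-fold. At 500 UMIs Psmb8 was detected in 18.8%, 6.48%, 5.44% and 5.58% of members, and in 20.8%, 18.1%, 16.9% and 17.3% of T cells, which use this gene. The members of the treated libraries stood below T cells and the untreated members near them. Between treated libraries the list differed little, with medians of -0.11 in the combination over ADU-S100 and -0.18 over anti-LTβR.

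The Ccl3-high neutrophils are given beside these values, since they came from the same libraries. In them the interferon-stimulated list had median log2 ratios to untreated of 0.10 in ADU-S100, 0.30 in anti-LTβR and 0.21 in the combination, and the MHC class I list -0.63, -0.35 and -0.50. The first list stood on the other side of 0 from the members, and the second on the same side. Isg15 was at 13.4, 18.1, 14.6 and 16.1 UMIs per 10000 in Ccl3-high cells and Gbp2 at 4.46, 3.83, 3.98 and 2.65. Psmb8 was at 2.12, 1.14, 1.19 and 1.08 there. The difference between the cell classes was not tested.

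Granule genes set the anti-LTβR library apart, and a small number of cells carried this. The secondary granule genes encode lactoferrin (Ltf), cathelicidin (Camp), neutrophilic granule protein (Ngp), lipocalin 2 (Lcn2), collagenase (Mmp8) and the surface proteins Cd177 and Ly6g. The 7 that passed in anti-LTβR over untreated were at least 2-fold higher (median log2 ratio 2.19), of which Camp, Mmp8, Ly6g and Cd177 had 3, 21, 17 and 23 UMIs in untreated members and reached the minimum through the anti-LTβR library, so the filter fixed their direction, and 6 of 7 were at least 2-fold lower in the combination over anti-LTβR (median -1.71). In ADU-S100 over untreated 1 of 7 was higher and 1 lower past 2-fold (median -0.50). The summed level was 13.9 UMIs per 10000 (12.6 to 15.4), 14.9 (14.5 to 15.4), 70.4 (68.4 to 72.5) and 21.6 (20.4 to 22.9).

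These UMIs were not spread over the members. Between 44.6% and 59.4% of members of a library had no secondary granule UMI. Cells with at least 100 such UMIs per 10000, a limit set after the values were seen, numbered 1 of 133 in untreated (0.752%, 0.0190 to 4.12), 4 of 1158 in ADU-S100 (0.345%, 0.0942 to 0.882), 11 of 294 in anti-LTβR (3.74%, 1.88 to 6.60) and 3 of 448 in the combination (0.670%, 0.138 to 1.94). The interval of anti-LTβR lay above that of ADU-S100, touched that of the combination and overlapped that of untreated, where 1 cell was found. At a limit of 50 the cells numbered 1, 23, 16 and 14 (0.752%, 1.99%, 5.44% and 3.12%), and the intervals of anti-LTβR (3.14 to 8.69) and the combination (1.72 to 5.19) overlapped. The cells past 100 held 70.9%, 49.8%, 87.1% and 67.2% of the list's UMIs. Without them the list stood at 4.13, 7.55, 10.3 and 7.22 UMIs per 10000, so that the order of the untreated and anti-LTβR libraries remained. Few genes of the list then reached the UMI minimum against untreated. These were Lcn2, Mmp8 and Ly6g in ADU-S100, Lcn2 and Mmp8 in anti-LTβR, and Lcn2 alone in the combination. Their median log2 ratios of 0.81, 1.70 and 1.20 are therefore not comparable with the medians over more genes given above. Mmp8 had 16 UMIs in these untreated members, so the filter fixed its direction in anti-LTβR.

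**Figure D4:**
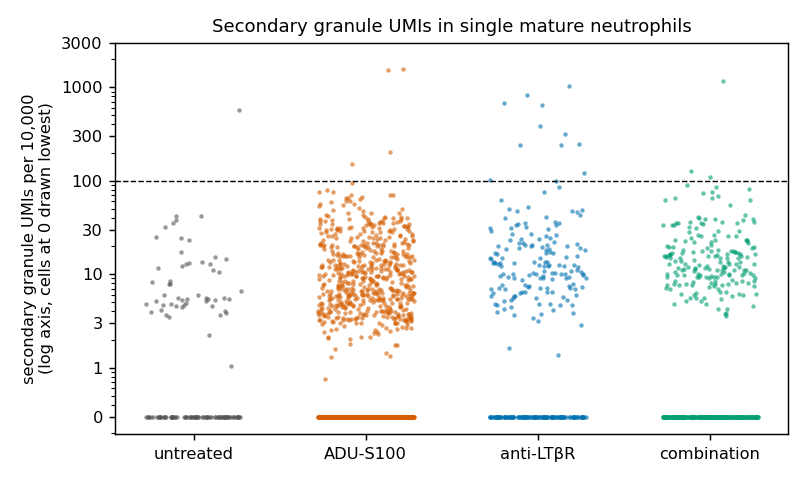
Summed secondary granule UMIs per 10000 in each mature neutrophil (log axis, cells without such a UMI drawn on the lowest line), 1 column per library. Above the dashed line at 100 lie 1 untreated, 4 ADU-S100, 11 anti-LTβR and 3 combination cells.

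Other genes also differed between the granule-rich cells and the other members, although 1 to 11 cells stand behind each value. S100a8 was at 1572, 1050, 1070 and 1052 UMIs per 10000 in them, against 174, 238, 263 and 185 in the other members. Ifitm6 was at 63.9, 44.8, 62.9 and 49.0 against 1.91, 1.83, 2.38 and 2.0, and the anti-inflammatory annexin Anxa1 at 24.0, 31.1, 23.6 and 43.5 against 1.80, 2.98, 4.16 and 3.44, its combination UMIs all from 1 of 3 cells. Il1b was lower, at 53.9, 33.3, 25.6 and 21.8 against 258, 253, 236 and 250, and so was Csf3r, at 2.0, 2.73, 4.09 and 1.09 against 21.2, 18.2, 22.2 and 22.4. Retnlg was at 0, 224, 176 and 98.0 in them. Elane had 1 UMI in the anti-LTβR cells and Mpo none in any, whereas Chil3, a chitinase-like protein of the primary granule and precursor list, was at 5.99, 16.4, 8.97 and 65.3 against 0.0353, 0.220, 0.175 and 1.08 in the other members. Stfa2, a stefin A protease inhibitor, was at 24.4 UMIs per 10000 in granule-rich cells of the anti-LTβR library and at 0 in those of the others. Stfa1, Stfa2 and Stfa3 are near-identical, so the split of reads between them is uncertain, and 1 cell held 52.3% of the Stfa2 UMIs.

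Gelatinase granule and cytosolic genes also stood highest in anti-LTβR. Without Retnlg, Mmp9 and Lrg1, which the rule used, 4 of 11 were at least 2-fold higher in anti-LTβR over untreated (median 0.85), and none was past 2-fold of 10 in ADU-S100 (median 0.21) or of 9 in the combination (median 0.04). With them the medians were 0.80, 0.12 and 0.12, and the further genes past 2-fold were Retnlg in all 3 and, lower in ADU-S100, Mmp9. Among the 4 of 11 higher in anti-LTβR, Stfa2 had 0 UMIs in untreated and 241 in anti-LTβR members. It reached the minimum through the anti-LTβR library alone, so the filter fixed its direction. Wfdc21, a small secreted protein, was at 2.01, 3.37, 8.11 and 3.75 UMIs per 10000, Anxa1 at 2.19, 3.16, 6.44 and 4.09, and S100a6, a calcium-binding protein, at 21.8, 22.1, 36.7 and 22.5. In single cells the median level of S100a8 and S100a9 together was 281, 532, 569 and 454 UMIs per 10000. By this measure all 3 treated libraries stood above untreated. Without the granule-rich cells Retnlg was at 8.51, 26.6, 35.3 and 22.1.

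Few receptors for homing and cytokines were past 2-fold. Cxcr2 and Csf3r, which the rule used, are among those listed. Of the homing and chemoattractant receptors, 0 of 15, 0 of 14 and 0 of 14 were at least 2-fold higher than untreated and 0, 1 and 0 lower, with medians of -0.16, 0.01 and -0.10, or -0.04, 0.08 and -0.06 without Cxcr2. The one past the mark was Ccrl2, which binds chemerin, at 21.3, 18.6, 9.89 and 12.6 UMIs per 10000. Cxcr4, the marrow retention receptor, was at 4.13, 3.41, 3.01 and 2.96. Of the cytokine receptors and decoys, 1 of 17 was at least 2-fold lower in ADU-S100 over untreated and none was past 2-fold in anti-LTβR or the combination, with medians of -0.13, -0.06 and -0.05. The gene was Il6ra, an IL-6 receptor chain, at 1.56, 0.726, 1.22 and 1.47. Il1r2, the decoy receptor for IL-1, was at 61.9, 38.3, 32.1 and 40.3, with log2 ratios of -0.69, -0.95 and -0.62, highest in untreated members. The receptor of the antibody itself, Ltbr, had 3 UMIs in untreated members and stood at 0.104, 0.159, 0.386 and 0.301, and Sting1 at 0.139, 0.0564, 0.139 and 0.195, both too few to compare at this depth.

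Of the cytokines and chemokines, 2 of 17, 0 of 11 and 1 of 12 were at least 2-fold higher than untreated and 2, 1 and 1 lower, with medians of -0.02, -0.32 and -0.09. Il1b was at 254, 251, 212 and 247 UMIs per 10000, and the CXCR2 ligand Cxcl2 at 224, 269, 180 and 208. Tnf was at 2.53, 1.56, 1.33 and 1.06, with a log2 ratio of -1.25 in the combination over untreated. Il1a was at 3.44, 6.38, 3.92 and 2.55, with -1.32 in the combination over ADU-S100. Cxcl10, an interferon-induced T cell chemokine, was at 3.33, 2.94, 1.56 and 1.97. Areg, an epidermal growth factor receptor ligand, was at 0.0347, 0.645, 0.278 and 3.31, but 1 cell held 72.7% of its UMIs in the combination and 1 cell 50.3% in ADU-S100.

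**Figure D5:**
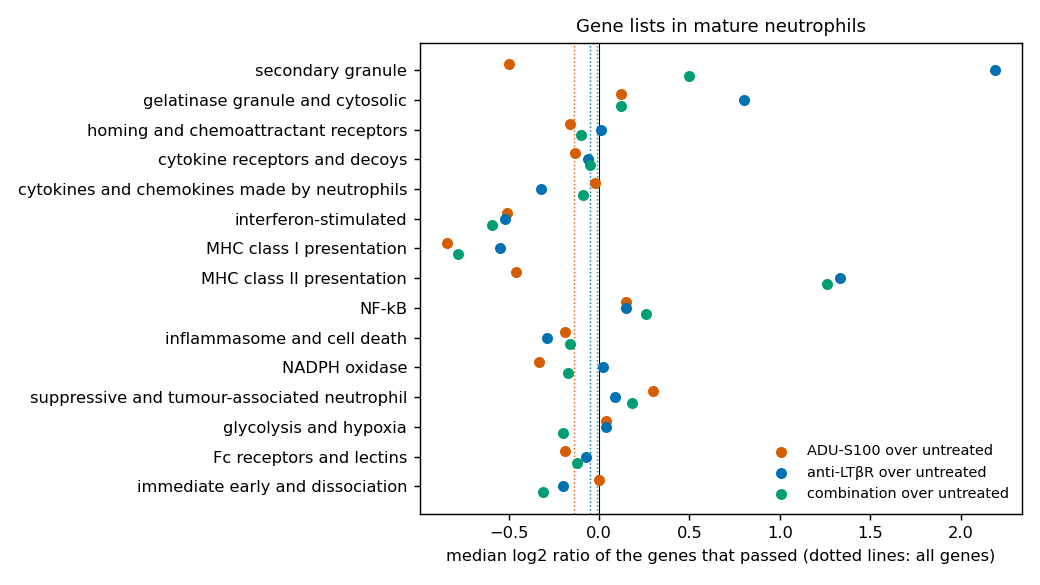
Median log2 ratio to untreated of 15 gene lists (genes of the gate included) in mature neutrophils, over the genes with at least 100 UMIs in the pair of libraries. Dotted lines mark the median of all genes in the comparison of the same colour. The interferon-stimulated list and the MHC class I list lie left of these lines in all 3 comparisons, at -0.51, -0.52 and -0.59 and at -0.84, -0.55 and -0.78.

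Few suppressive and tumour-associated genes were past 2-fold. Their medians to untreated were 0.30, 0.09 and 0.18, with 2 of 18, 0 of 15 and 1 of 14 at least 2-fold higher and 1, 1 and 2 lower, counts of a few genes beside backgrounds of 4.60% and 3.53%, 3.72% and 1.73%, and 3.0% and 1.25%. Cd274, the PD-L1 gene, was the member with the clearest order, at 11.6, 9.58, 7.06 and 4.89 UMIs per 10000. Its log2 ratio in the combination was -1.25 (-1.49 to -1.02) to untreated, -0.97 to ADU-S100 and -0.53 to anti-LTβR. At 500 UMIs Cd274 was detected in 30.8%, 29.6%, 24.1% and 18.3% of members, against 4.92%, 6.36%, 5.66% and 4.76% of T cells. In Ccl3-high cells Cd274 was at 13.7, 19.1, 16.8 and 13.7. Ptgs2, the cyclooxygenase of prostaglandin synthesis, was at 39.2, 30.3, 23.5 and 23.1, and Olr1, a scavenger receptor, at 5.34, 4.69, 9.84 and 6.97.

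Hilpda and a few other hypoxia genes had their highest levels in ADU-S100 members. Glycolysis and hypoxia genes had medians of 0.04, 0.04 and -0.20 to untreated, and in ADU-S100 1 of 30 was at least 2-fold higher, against a background of 4.60%, while 27 lay above the median of all genes. In the combination over ADU-S100, 26 of 30 lay below it, 3 of them at least 2-fold lower, with a median of -0.34. Hilpda, a lipid droplet protein induced by low oxygen, was at 1.28, 4.54, 1.61 and 1.52 UMIs per 10000, with a log2 ratio of 1.80 in ADU-S100 over untreated and -1.57 in the combination over ADU-S100. Ero1a, an oxidase of protein folding, was at 3.75, 4.57, 2.38 and 1.49, with UMIs in 432 of 1158 ADU-S100 members and 41.7% of the untreated UMIs in 1 cell. Bnip3, a mitophagy receptor, was at 0.833, 1.61, 0.973 and 0.779. Fnip2, of the suppressive list, followed at 1.25, 2.91, 1.51 and 1.01.

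NF-κB genes, the targets and subunits of the pathway that the lymphotoxin-β receptor engages, had medians of 0.15, 0.15 and 0.26 to untreated, and none was at least 2-fold higher or lower in any of these 3 comparisons. Nfkb1 was at 4.86, 8.03, 7.79 and 8.37 UMIs per 10000, with log2 ratios of 0.72, 0.68 and 0.78, whereas Nfkb2 and Relb of the noncanonical branch were at 0.937, 0.825, 0.772 and 0.903 and at 1.32, 1.36, 1.48 and 1.59. The NADPH oxidase genes had medians of -0.33, 0.02 and -0.17; Cybb, the catalytic subunit, was at 1.04, 1.36, 3.31 and 1.54 and was the one past 2-fold, in anti-LTβR. Inflammasome and cell death genes had medians of -0.19, -0.29 and -0.16. Eicosanoid genes stood at -0.07, -0.09 and -0.08, the lineage transcription factors at -0.03, -0.19 and 0.11, and the Fc receptors and lectins at -0.19, -0.07 and -0.12. Of the last, 1 of 18, 3 of 17 and 1 of 16 were at least 2-fold lower, against backgrounds of 3.53%, 1.73% and 1.25%, and none higher. In anti-LTβR these were Clec5a (-1.24), Clec4n (-1.07) and Fcgr4 (-1.03). Fcgr4, a receptor for IgG, was at 3.05, 1.80, 1.50 and 1.29, with a log2 ratio of -1.24 in the combination over untreated. Nucleic acid sensing genes had medians of -0.04, -0.13 and 0.04.

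Immediate early genes, which rise during tissue dissociation, had medians of 0.00, -0.20 and -0.31, and Fos was at 31.4, 19.3, 16.3 and 16.9 UMIs per 10000, highest in untreated members. MHC class II genes had 4 genes above the UMI minimum, and their medians were -0.46, 1.33 and 1.26 to untreated and 1.64 in the combination over ADU-S100. H2-Ab1 was at 1.46, 1.06, 4.94 and 3.79 in members. At 500 UMIs it was detected in 4.51%, 3.63%, 6.80% and 12.9% of members and in 2.19%, 2.69%, 3.17% and 6.04% of T cells, which lack it, so members and T cells were both higher in the combination library. The class II UMIs were concentrated, with 35.4% of them in 1 cell of the untreated library and 31.8% in 1 cell of the anti-LTβR library. Without the tenth of cells with the most class II UMIs in each library, the list stood at 4.16, 3.35, 4.39 and 11.2 UMIs per 10000, against 12.7 in untreated and 28.9 in anti-LTβR with them. Anti-LTβR was then close to untreated and the combination still higher. Without each gene's highest cell alone, the medians to untreated were 0.20, 1.72 and 2.01.

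Few genes passed 2-fold against untreated in all 3 treated libraries. Of 1376 genes with enough UMIs in the 3 comparisons, 9 were higher in all (Fn1, Fam107b, Optn, Tnfaip6, Errfi1, Camp, Myo1d, Cd86 and Retnlg, the last a gene of the rule) and 6 lower, among them Bmp2k, Tmem123, Crip1, Cks2 and Psmb8. Because the untreated library was common to all, its 133 cells bore on each of these. Camp, Cd86, Errfi1 and Fn1 had 3, 15, 18 and 20 UMIs in untreated members, so that in at least 1 of the comparisons they could reach the UMI minimum only by being past 2-fold, and the filter fixed their direction there. Camp had UMIs in 4, 11 and 3 cells of the treated libraries, with 51.1%, 60.0% and 99.2% of them in 1 cell, and 1 combination cell held 49.8% of the Fn1 UMIs there. Tnfaip6, a hyaluronan-binding protein induced by inflammation, was at 0.729, 2.60, 3.82 and 2.87 UMIs per 10000, with log2 ratios of 1.80, 2.36 and 1.95, and at 2.06, 2.46 and 2.13 without each library's highest cell. It had 21 UMIs in untreated members, so in anti-LTβR and the combination it could reach the UMI minimum only by being higher there. The filter thus fixed that direction, and likewise for Myo1d in both comparisons and for Optn in the combination. Cd86, the costimulatory ligand, was at 0.520, 2.20, 2.86 and 2.28, but its ratio in anti-LTβR was -0.31 where no granule gene was required of a cell. In anti-LTβR members Cd86 stood at 0.334 times its level over all other barcodes of the library. Fn1 stood at 0.436 times in combination members, and the part of free RNA was not tested. Fam107b was at 3.75, 7.62, 8.87 and 7.88 and Optn, an autophagy adaptor, at 1.11, 2.67, 2.39 and 2.41. Trp53inp1, a p53-induced gene, passed in 2 of these comparisons, at 0.139, 1.23, 1.70 and 1.47, with log2 ratios of 2.98 and 3.45. It had 4 UMIs in untreated members, so the filter fixed its direction.

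The genes with the largest ratios were often carried by single cells. In the combination library 1 cell of 16269 UMIs held the highest count of 11 of the genes named by rank, among them Hmga2 (84.2% of its UMIs), Timp3 (97.5%), Efna5 (76.0%), Ghr (93.5%), Klhl1 (96.2%) and Cdh13 (94.9%). It passed the gate with 4 Csf3r, 1 Cxcr2, 11 G0s2 and 6 Hdc UMIs, and held 35 UMIs of the macrophage and monocyte list. In the untreated library 1 cell of 9605 UMIs held the highest count of 6 named genes that were lower in treated libraries (Bmp2k, Crip1, Lrrk1, Psmb8, Rabgap1l and Tmem123), and 23 UMIs of the dendritic cell list. Psmb8 did not rest on it, at log2 ratios of -1.22, -1.17 and -1.44 without each library's highest cell, whereas Tmem123 went from -1.75, -2.07 and -1.87 to -0.55, -0.92 and -0.72. Another untreated cell, of 8698 UMIs, held the highest counts of Clec5a and Cd274 there, 21.1% and 9.25% of their UMIs. It also held 54 UMIs of the macrophage and monocyte list. No doublet caller was run on these cells.

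Some genes were higher in ADU-S100 with UMIs in more cells, although they reached the UMI minimum largely through that library, which had the most UMIs. Mir155hg, the host transcript of miR-155, was at 0.104, 0.980, 0.232 and 0.212 UMIs per 10000, with UMIs in 93 of 1158 ADU-S100 members, a log2 ratio of 3.01 over untreated and -2.15 in the combination over ADU-S100. Its level in ADU-S100 members was 0.747 times that over all other barcodes of the library, and the part of free RNA was not tested. Slc15a2, a peptide transporter, was at 0.902, 1.67, 1.08 and 0.425, with UMIs in 271 members and -1.95 in the combination over ADU-S100. Ciart, a repressor of the circadian clock, was at 0.208, 0.655, 0.139 and 0.195. Mir155hg had 3 UMIs in untreated and 12 in combination members, and Ciart 6 and 11. Both could reach the minimum only by being higher in ADU-S100, so the filter fixed their direction against these libraries. On the lower side, Ltb, lymphotoxin β, was at 1.94, 0.673, 1.28 and 0.938, with a log2 ratio of -1.54 in ADU-S100.

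Against the Ccl3-high neutrophils of the same library, the contrast that the rule itself drew, genes are given as a description, and no test applies, since the rule required a granule gene and few chemokine UMIs. Of 1051 genes with enough UMIs in all 4 libraries, Il6, a cytokine of inflammation, stood lowest in members, at 0, 0.176, 0 and 0.159 UMIs per 10000 against 9.22, 0.721, 1.91 and 2.07 in Ccl3-high cells. Cxcl3 was at 16.8, 25.6, 12.1 and 16.1 UMIs per 10000 in members and 28.3, 59.6, 35.4 and 47.1 in Ccl3-high cells, Il1a, interleukin-1α, at 3.44, 6.38, 3.92 and 2.55 against 10.7, 14.9, 11.7 and 9.54, and F3, tissue factor, at 2.50, 2.92, 1.81 and 2.32 against 5.77, 7.59, 8.33 and 8.59. Hilpda and Ero1a were lower in members in every library, with median log2 ratios of -1.72 and -1.58. On the higher side were Lyz2, lysozyme, at 4.51, 5.50, 12.5 and 10.5 against 3.36, 2.67, 4.76 and 4.40, Hp, haptoglobin, at 7.43, 8.81, 9.24 and 8.92 against 4.78, 4.15, 4.13 and 4.29, and Prkcb, a protein kinase C, at 3.89, 2.65, 5.17 and 4.87 against 2.14, 1.50, 2.41 and 2.37. These genes were chosen for the same direction in all 4 libraries.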

How the data were processed

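Single-cell 5′ RNA sequencing was done on live CD45+ cells of pooled tumours, 1 library per group. The authors deposited filtered matrices of UMI counts per gene and barcode, raw and whole, made with Cell Ranger. The file headers name version 8.0.1 and the labels 7.1.0 with build mm10, and the 33696 features were used as named there. Each group had 1 library, so no test was run and depth alone sets the intervals.

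Barcodes were gated as the report states, with Python 3.11.15, numpy 2.4.6, scipy 1.17.1, pandas 2.3.3 and matplotlib 3.10.9. Member counts were summed per library and given per 10000 UMIs with exact Poisson intervals. Shares carry Clopper-Pearson intervals, and their ratios log-normal ones. Log2 ratios used a prior of 0.5 UMI and exact binomial intervals, for genes with at least 100 UMIs over both libraries. Detection was compared after thinning cells to 500 UMIs, with T cells as the measure of free RNA. No doublet caller was run, and doublet-like cells were left out by markers as an alternative. Computation was tested on simulated data, where 96.6% to 99.5% of changed genes were recovered across the comparisons. Every changed gene was set past 2-fold there, and counts were independent draws without UMIs gathered in single cells. The values thus check the computation and do not measure recovery in the real cells.

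The members, gene lists and alternatives were chosen with earlier results of these data known. Genes were named by list, among the largest differences of a list, or among the 10 largest ratios in each direction of a comparison, without immunoglobulin, ribosomal and other-cell marker genes. Genes under 0.25 of their level over all other barcodes of the library were left out of these ranks as possible free RNA. Further list members, Igkc, Ltbr and Sting1 were chosen after their values were seen. Alternatives covered depth, gate, scaling, minimum counts and doublets. Values of a few listed genes are not reported here.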

Additional observations from a re-analysis of the deposited data

Results flagged for a closer look

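Some values differed between the contrasts in which an agent was given alone and in combination. None of these differences was tested, since each group had 1 library.

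The share of members among barcodes was 1.22 times as large with anti-LTβR as without it in the absence of ADU-S100, and 0.353 times as large in its presence. Among gated neutrophils the same pair of ratios was 0.934 and 1.38, in the opposite order. For ADU-S100, the ratio of the member share of gated neutrophils was 0.759 without anti-LTβR and 1.12 with it. These ratios share libraries, so they are not independent.

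MHC class II genes stood on opposite sides of 0 in the neutrophil classes in 2 of 3 comparisons with untreated, and on the same side in ADU-S100 (a median of -0.46 in members, and 4 of 4 genes at least 2-fold lower in Ccl3-high cells), although the member median there was 0.20 without each gene's highest cell. The median log2 ratio of anti-LTβR to untreated was 1.33 in members and -0.58 in Ccl3-high cells, and that of the combination to untreated was 1.26 and -0.73. In the untreated library 1 member held 35.4% of the class II UMIs. Without the tenth of cells with the most class II UMIs in each library, the summed level was 4.16 UMIs per 10000 in untreated, 4.39 in anti-LTβR and 11.2 in combination members. The part of free RNA was not tested.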

How the results depend on the processing

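No paired analysis was possible because each group had 1 library, so fewer than 2 replicate numbers were shared. No ratio of member shares turned its direction under any alternative run. Thinned to 500 UMIs, the combination gave 0.435 times the ADU-S100 share and 1.67 times the anti-LTβR share. Thinned to 1000 UMIs, it gave 1.15 times the untreated, 0.251 times the ADU-S100 and 1.03 times the anti-LTβR share, and with at least 500 genes per cell 1.22, 0.248 and 1.00. The intervals of 1.15 and 1.22 held 1. Without the limit on Ccl3 and Ccl4, ADU-S100 over untreated was 7.05, the combination over ADU-S100 0.243 and the combination over anti-LTβR 1.15. Over barcodes outside the neutrophil gate, ADU-S100 over untreated was 6.28 and the combination over ADU-S100 0.273. The cause was not tested for any of these.

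The number of genes past 2-fold was 272, 82, 61, 177 and 48 in the 5 comparisons, in the order of the report. It was 71, 13, 20, 41 and 11 with members thinned to 500 UMIs, 1066, 318, 305, 777 and 254 with a minimum of 30 UMIs, and 62, 22, 17, 46 and 16 with a minimum of 300 UMIs, where fewer or more genes entered. With each gene's highest cell left out, 285 were higher and 58 lower in ADU-S100 over untreated and 54 and 106 in the combination over ADU-S100, and with a minimum of 30 UMIs 467 and 599 in the former. With at least 2 granule genes per cell it was 127 in ADU-S100 over untreated, 32 in the combination over untreated and 98 in the combination over ADU-S100. With no granule gene required it was 76 in the combination over anti-LTβR. Without the granule-rich cells it was 53 in anti-LTβR over untreated and 25 in the combination over anti-LTβR, the latter 22 higher and 3 lower in place of 27 and 21. These alternatives, granule-rich cells and highest cells left out, were chosen after seeing the data.

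Named genes turned direction in few settings, but their sizes moved more often. Of 97 named ratios, 42 kept their sign but left their main interval by the mean over cells, and 84 were still past 2-fold. Without each gene's highest cell these numbers were 31 and 83. In ADU-S100 over untreated, Tmem123 came to 0.01 with at least 2 granule genes. Cd86 in anti-LTβR over untreated came to -0.31 with no granule gene required. With each gene's highest cell left out, Ltf came to 0.13 in ADU-S100 over untreated, and Klhl1 to -0.70 and Cdh13 to -0.43 in the combination over ADU-S100. With members thinned to 500 UMIs the interferon-stimulated medians to untreated were -0.16, -0.29 and -0.36.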
